A study of Mus musculus with 8 samples.

Results

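The genes described here were 10 members of the Bcl2 family, the proteins that decide at the mitochondrial outer membrane whether a cell enters apoptosis. They were Hrk, Bbc3, Bcl2l11, Bid and Bad (BH3-only proteins), Bax and Bak1 (effectors), and Bcl2, Bcl2l1 and Mcl1 (pro-survival proteins). The members were chosen by name for these roles, with earlier results of these arrays known. Their probes were found through the RefSeq accession that the array gives for each probe. The 10 genes were among 22911 genes matched in this way, and they had 20 of the 56605 probes that were not controls. Of these 20 probes 18 were among the 34303 probes tested, so that all 10 members had a value among the 14848 tested genes.

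The measurements came from 8 one-color Agilent microarrays of total RNA from isolated mouse photoreceptor cells at P8 (postnatal day 8), 4 with the genotype label Lpcat1 HZ (heterozygous) and 4 with Lpcat1 KO (knockout). Lpcat1 encodes an acyltransferase that makes saturated phosphatidylcholine, and both groups carried the label C57BL/6. The HZ group was the control, so that all mice carried at least 1 deleted allele, and the deletion was present in the whole animal rather than in photoreceptor cells alone. Per the methods, the line was made on C57BL6/N, was crossed with C57BL6/J, and mice homozygous for rd8, a Crb1 mutation of C57BL6/N, were not used. Retinas were dissociated with trypsin, and CD73-positive cells were collected on magnetic beads as photoreceptor cells. Neither the labels nor the methods used here state whether 1 animal or several gave each sample, and the p-values therefore describe only the spread between these samples.

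Bcl2 family proteins act by binding each other. BH3-only proteins are produced or activated under stress or loss of trophic signals, occupy the groove of the pro-survival proteins, and in some cases engage the effectors directly. Freed Bax and Bak1 form pores that release cytochrome c, which assembles the apoptosome and activates caspases, and photoreceptor cells in degenerating retinas are known to die with features of this and of other forms of cell death. The comparison of these arrays was made at the age when photoreceptor cell death begins in the KO retina, and it asks here whether transcripts on the pro-death side or on the pro-survival side differed between the labels.

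Lpcat1, the deleted gene, did not separate the labels. Its log2 signal after subtraction of each array's 75th percentile, the scale of all levels given here, was -0.81, -0.95, -1.02 and -1.17 on the HZ-labelled arrays and -0.97, -1.16, -1.11 and -0.85 on the KO-labelled arrays. The values overlapped, and limma gave a group difference of -0.04 with a standard error of 0.11 (adjusted p = 0.931). The position of the probe relative to the deleted part of the gene is not given in the sources used here, so that the probe gives no check of the labels, and groups are named by their labels throughout. All differences below are the mean of the KO-labelled arrays minus the mean of the HZ-labelled ones on the log2 scale. Adjusted p-values are those of limma after Benjamini-Hochberg adjustment over all tested probes.

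Markers of photoreceptor cells were detected. All 12 rod markers and all 8 cone markers examined were well above background on all 8 arrays. So were 9 of 9 Muller glia, 8 of 8 bipolar, 11 of 12 microglia and 10 of 13 tested pigment epithelium markers. Detection alone therefore does not single out photoreceptor cells. On the HZ-labelled arrays the summed log2 level was 9.9 to 10.3 for rod, 6.4 to 7.4 for cone and 7.6 to 7.9 for bipolar markers. A sum is set mostly by its brightest genes. The brightest bipolar marker alone had a mean of 6.86 on the HZ-labelled arrays, and the dimmest had -1.36. These sums therefore do not rank the amounts of the cell types. In some of the marker lists most genes differed in the same direction between the labels. All 13 tested markers of the retinal pigment epithelium (RPE) were lower on the KO-labelled arrays (median difference -1.45), with a summed log2 level of 4.01 to 5.34 on the HZ-labelled arrays and 2.93 to 3.88 on the KO-labelled arrays, while Rpe65 itself was well above background on all arrays. All 12 microglia markers were higher (median 0.78), with a summed level of 2.22 to 3.13 on the HZ-labelled arrays and 2.71 to 3.42 on the KO-labelled arrays, and Cx3cr1 was well above background on all arrays. Of the 12 rod markers 11 were lower (median -0.13), and all 8 cone markers were higher (median 0.33). As a mean deviation from their 8-array means, the cone markers lay at -1.04 to 0.68 on the HZ-labelled arrays. On the KO-labelled arrays they lay at -0.24 to 0.48, within that range. The rod markers lay at -0.09 to 0.26 on the HZ-labelled and -0.17 to 0.07 on the KO-labelled arrays, and overlapped. Both tested red blood cell markers were higher, with a median of 1.61 and a summed level of -3.01 to -1.61 on the HZ-labelled arrays and -2.50 to 0.26 on the KO-labelled arrays. Of the bipolar cell markers 7 of 8 were lower (median -0.35), and of the Muller glia markers 7 of 9 (median -0.27). As mean deviations, bipolar markers lay at -0.19 to 0.58 on the HZ-labelled and -0.36 to 0.05 on the KO-labelled arrays. Muller glia markers lay at -0.23 to 0.66 and -0.50 to 0.40, so that both lists overlapped between the labels. Higher were 2 of 5 endothelial (median -0.0054), 3 of 4 amacrine, horizontal and ganglion (median 0.12) and 2 of 6 progenitor markers (median -0.15). At an unadjusted limma p under 0.05, 10 RPE and 2 Muller glia markers were lower. The RPE and Muller glia lists share a gene, which is counted in both of these numbers. At the same p, 4 microglia, 2 red blood cell and 1 cone marker were higher, and 0 markers of the other lists were called. Of all tested genes 5.81% were higher and 3.5% lower at this p. The KO-labelled arrays lay in row 1 of the slide and the HZ-labelled arrays in row 2, so that slide row and genotype cannot be told apart. The part of these other cells in the differences below was not tested. In samples of many cells, fewer cells of a type and less RNA per cell cannot be told apart.

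The member with the largest difference was Hrk (harakiri), a BH3-only protein that is induced in neurons deprived of trophic support. On the HZ-labelled arrays 1 to 4 its level was -0.96, -0.55, -0.72 and -1.19. On the KO-labelled arrays 1 to 4 it was -0.41, 0.37, -0.18 and -0.20. Every KO-labelled array was above every HZ-labelled array, and the highest of all was KO 2. The difference was 0.75 (standard error 0.20, 95% interval 0.29 to 1.21), a fold change of 1.68, with an unadjusted p of 0.0054 and an adjusted p of 0.434 by limma. The exact two-sided permutation test gave 0.0286, the smallest p that 4 arrays against 4 allow. When arrays of the same replicate number were paired, the KO-labelled one had the higher Hrk level in each of the 4 pairs, by 0.55, 0.92, 0.54 and 1.00. How many of all tested genes were higher in every pair was not counted, here or for the pairs below.

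Hrk was the 1 member past the looser thresholds that the methods name, a change of more than 1.5-fold together with an adjusted p below 0.5, which 0.33% of the tested genes passed in this direction. With a cut of 0.5 on the adjusted p, a fraction of up to 0.5 of the probes below it is expected to be false. The call was lost without any 1 of HZ 1, HZ 3, HZ 4, KO 1, KO 2, KO 3 or KO 4, with adjusted p from 0.509 to 0.799, and without a filter on dim probes, with 0.836. The size stayed between 0.59 and 0.85 in all 18 alternative settings. Among all tested genes 2.67% differed at least as far as Hrk in either direction, and 22 genes, Hrk among them, were at least as far higher with no overlap between the labels. A second, dimmer Hrk probe exceeded background on 0 of 4 HZ-labelled and 1 of 4 KO-labelled arrays and was not tested, so that the Hrk value rests on 1 probe.

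Bbc3, which encodes the BH3-only protein Puma, a p53 target that binds all of the pro-survival proteins, had the next largest difference. On the HZ-labelled arrays its level was 0.54, 1.05, 0.84 and 0.47. On the KO-labelled arrays it was 0.95, 1.65, 1.01 and 1.07. The groups overlapped, since HZ 2 was above KO 1 and KO 3, and again HZ 2 and KO 2 were the highest of their groups. The difference was 0.44 (standard error 0.19, 95% interval 0.0011 to 0.89, unadjusted p = 0.0495, limma adjusted p = 0.611). The exact two-sided permutation test gave 0.0857, which is not under 0.05. With the replicate number as a block the unadjusted limma p was 0.00796. Of the 18 alternative settings, 6 gave Bbc3 an unadjusted p under 0.05. The KO-labelled array was higher in 4 of 4 pairs, by 0.42, 0.60, 0.17 and 0.60. Without an array the difference lay between 0.29 and 0.55.

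**Figure D1:**
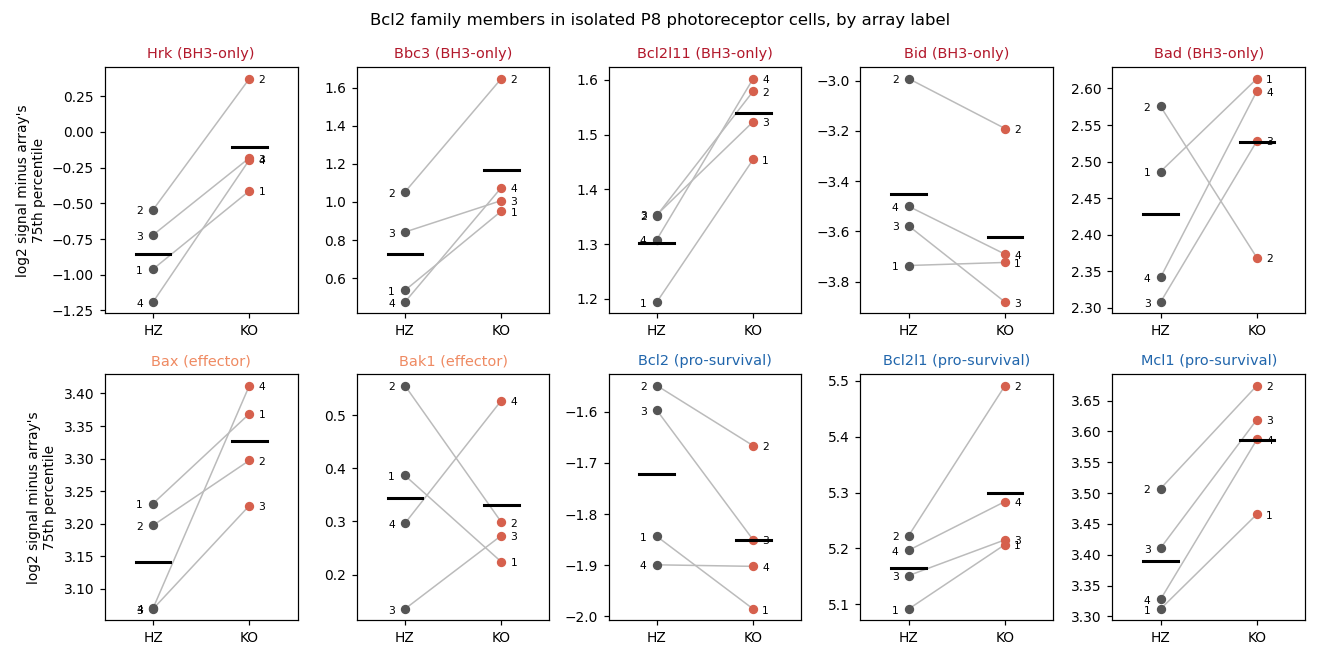
Level of the 10 members (log2 signal minus the array's 75th percentile, a separate scale for each gene) on the 4 HZ-labelled and the 4 KO-labelled arrays, with the replicate number beside each point, gray lines joining arrays of the same number and black bars for group means. Hrk and Bcl2l11 are the 2 members whose KO-labelled arrays all lie above the HZ-labelled arrays, and replicate 2 is the highest HZ array for 8 of the 10 members.

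Bcl2l11 encodes Bim, a BH3-only protein induced by FoxO factors and by loss of growth factors. Its brightest probe gave 1.19, 1.35, 1.35 and 1.31 on the HZ-labelled arrays. The same probe gave 1.45, 1.58, 1.52 and 1.60 on the KO-labelled arrays. The groups did not overlap, and the spread within each group was small. The difference was 0.24 (standard error 0.08, 95% interval 0.05 to 0.42, unadjusted p = 0.0171, limma adjusted p = 0.518), a fold change of 1.18. The exact permutation test gave 0.0286, the smallest possible. A difference of this size is common on these arrays, since 24.1% of the tested genes differed at least as far in either direction. The other tested Bcl2l11 probes gave 0.23 (standard error 0.11) and -0.0042 (standard error 0.17), both with overlapping groups, and the first of these was -0.08 with a normexp background correction. A further Bcl2l11 probe exceeded background on 2 of 4 HZ-labelled and 0 of 4 KO-labelled arrays and was not tested. Hrk and Bcl2l11 were thus the 2 of 10 members higher without overlap, where 5.48% of all tested genes were, and 0 members were lower without overlap, where 2.52% of genes were.

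The sequence upstream of these 3 genes is shown because they had the largest differences, all higher on the KO-labelled arrays. RefSeq promoters on GRCm38.p6 matched all 10 members, and the 250 bases before each start were searched on both strands for 7 motifs. The Hrk region lies at chr5:118169514-118169763 on the plus strand, directly before the start. The Bbc3 region (chr7:16310011-16310260, plus strand) belongs to 1 of the 3 starts of that gene, and the Bcl2l11 region (chr2:128125788-128126037, plus strand) to 1 of 2. For both genes the start shown is the one that held a motif match, and the regions before their other starts held no match. Capitals mark motif matches, TGATGTAA (ATF variant) in Hrk, TGTTTAC (FOXO) in Bbc3 and GTAAACA, the FOXO motif on the minus strand, in Bcl2l11.
Hrk: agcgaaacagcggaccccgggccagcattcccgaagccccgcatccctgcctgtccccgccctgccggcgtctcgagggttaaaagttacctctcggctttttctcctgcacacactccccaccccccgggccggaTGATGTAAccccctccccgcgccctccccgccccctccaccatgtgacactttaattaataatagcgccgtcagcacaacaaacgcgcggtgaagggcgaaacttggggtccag
Bbc3: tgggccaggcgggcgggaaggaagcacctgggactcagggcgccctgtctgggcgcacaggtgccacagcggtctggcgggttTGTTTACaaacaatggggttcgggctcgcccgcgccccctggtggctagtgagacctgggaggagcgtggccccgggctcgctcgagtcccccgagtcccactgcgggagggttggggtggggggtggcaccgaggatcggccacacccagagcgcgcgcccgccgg
Bcl2l11: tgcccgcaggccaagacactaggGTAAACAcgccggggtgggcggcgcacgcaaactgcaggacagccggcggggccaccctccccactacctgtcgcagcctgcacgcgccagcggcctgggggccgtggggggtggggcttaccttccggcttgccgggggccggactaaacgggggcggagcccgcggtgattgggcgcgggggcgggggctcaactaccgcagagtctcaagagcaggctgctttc

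In Hrk the match began 114 bases before the start. That motif, searched after the sequence had been read, was found in 0.965% of 32851 promoters of the same length and in 1 of 16 member promoters. The FOXO match began 167 bases before the start in Bbc3 and 227 bases before it in Bcl2l11. The FOXO motif was found in 3.17% of all promoters and in 2 of 16 member promoters. The member promoters held no match to the CRE motif TGACGTCA (1.55% of all promoters), the AP-1 motif TGACTCA (4.46%), the E2F motifs TTTCCCGC (0.895%) and TTTGGCGC (0.417%) or the p53 element (0.0639%, spacer of up to 13 bases), which says only that these letters were not in these windows. The 3 regions were rich in G and C, with 63.2% in Hrk, 72.4% in Bbc3 and 72.0% in Bcl2l11. The motif matches are descriptions of the sequence and were not measured as binding.

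The other BH3-only members differed by less than the spread between arrays. Bid, which caspase-8 cleaves to link death receptors to mitochondria, had a level between -3.74 and -2.99 on the HZ-labelled arrays and between -3.88 and -3.19 on the KO-labelled arrays. Its difference was -0.17 (standard error 0.20, limma adjusted p = 0.817). Bad, which is held inactive by phosphorylation and 14-3-3 proteins, had a level between 2.31 and 2.58 on the HZ-labelled arrays and between 2.37 and 2.61 on the KO-labelled arrays. Its difference was 0.10 (standard error 0.10, limma adjusted p = 0.785). Bid was dimmer than the array's 75th percentile and Bad brighter on all 8 arrays.

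The effectors Bax and Bak1 overlapped between the labels. Bax, which moves from the cytosol to mitochondria when activated, gave 3.23, 3.20, 3.07 and 3.07 on the HZ-labelled arrays and 3.37, 3.30, 3.23 and 3.41 on the KO-labelled arrays. Only KO 3 fell within the range of the other label, just below HZ 1, and the KO-labelled array was higher in 4 of 4 pairs. The difference was 0.18 (standard error 0.08, 95% interval -0.0082 to 0.38, limma adjusted p = 0.622), and it changed sign to -0.12 with a normexp background correction. The second Bax probe gave 0.12 (standard error 0.11). Bak1, which resides on mitochondria, differed by -0.01 (standard error 0.12, 95% interval -0.28 to 0.26, limma adjusted p = 0.98), with 2 of 4 pairs higher, and its sign turned in 6 of 18 alternative settings.

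Among the pro-survival members, Mcl1 and Bcl2l1 were nominally higher and Bcl2 nominally lower. Mcl1, a short-lived protein that restrains Bim and Bak1, gave 3.31, 3.51, 3.41 and 3.33 on the HZ-labelled arrays and 3.47, 3.67, 3.62 and 3.59 on the KO-labelled arrays. Only KO 1 lay within the HZ range, below HZ 2, and the KO-labelled array was higher in 4 of 4 pairs, by 0.15 to 0.26. The difference was 0.20 (standard error 0.09, unadjusted p = 0.0509, limma adjusted p = 0.614), and with the replicate number as a block the unadjusted p was 0.0373. Bcl2, the founding member of the family, had a level of -1.90 to -1.55 on the HZ-labelled arrays and of -1.99 to -1.67 on the KO-labelled arrays. It was lower on the KO-labelled array in all 4 pairs, with a mean difference of -0.13 (standard error 0.12, limma adjusted p = 0.769), while with a normexp background correction the difference was 0.06. Its second probe gave -0.21 (standard error 0.11).

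Bcl2l1, whose main product is the pro-survival protein Bcl-xL, was covered by 5 probes. Its brightest probe gave 5.09, 5.22, 5.15 and 5.20 on the HZ-labelled arrays and 5.21, 5.49, 5.22 and 5.28 on the KO-labelled arrays. The groups overlapped, since HZ 2 was above KO 1 and KO 3, and the difference was 0.13 (standard error 0.09, limma adjusted p = 0.717). The other 4 probes were also higher, with differences from 0.12 to 0.31. One of them gave -0.37, -0.28, -0.31 and -0.36 on the HZ-labelled arrays and -0.13, 0.02, 0.02 and 0.02 on the KO-labelled arrays. This probe did not overlap between the labels and had the smallest unadjusted p of all member probes, 0.00323 (difference 0.31, standard error 0.08, limma adjusted p = 0.403), although its fold change of 1.24 was below 1.5. Alternative splicing makes a shorter, pro-death product from this gene, and which product each probe reads was not determined here.

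**Figure D2:**
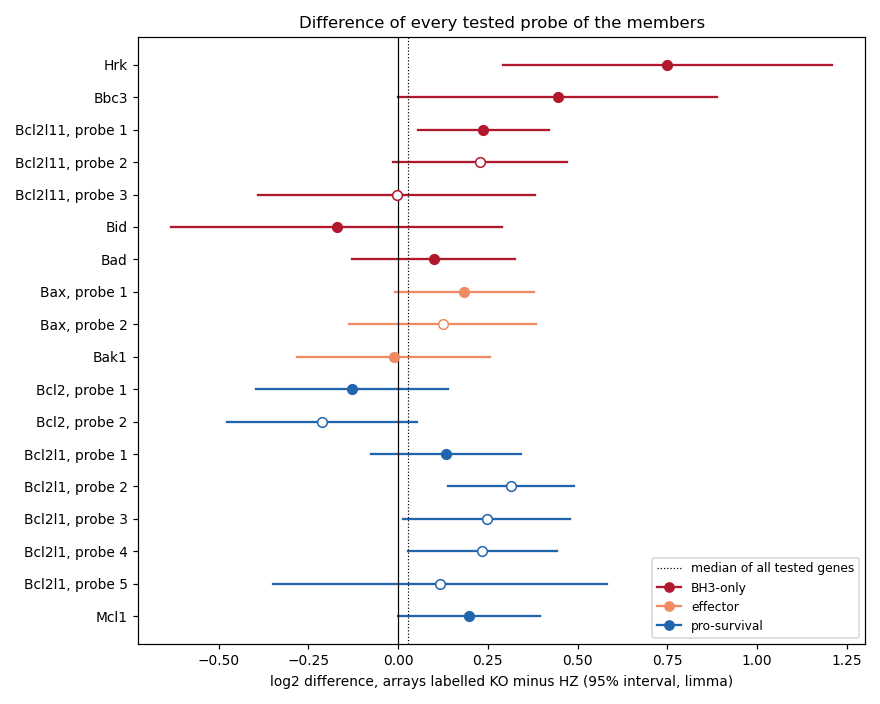
Log2 difference between KO-labelled and HZ-labelled arrays for the 18 tested member probes, with 95% intervals from limma, colored by role (filled, the brightest probe of the gene, by which it is counted; open, other probes). The intervals of Hrk, Bbc3, 1 Bcl2l11 probe and 3 Bcl2l1 probes lie above 0, and all 5 Bcl2l1 probes lie to the right of 0.

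Counted by their brightest probe, 7 of the 10 members were higher on the KO-labelled arrays, where 56.8% of all tested genes were higher, and 3 were lower. The count of higher members was between 7 and 8 under the other scalings of the arrays. That of all tested genes was between 7366 and 8913 of 14848 under them. At an unadjusted p under 0.05, 3 members were higher (Hrk, Bbc3 and Bcl2l11) and 0 were lower, where 5.81% of the tested genes were higher and 3.5% lower. At the stricter thresholds, a change of more than 1.2-fold with an adjusted p below 0.05, limma called 0 members and 0% of the tested genes, and the smallest adjusted p of any probe was 0.158. In every pair of the same replicate number 6 of the 10 members were higher, a count without a share of all tested genes beside it. The members were chosen with earlier results of these arrays known, and these counts are descriptions. The number of members at an unadjusted p under 0.05 was 1 without HZ 1 and 5 with a trended, robust variance prior.

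By role, the median difference was 0.24 for the 5 BH3-only members, 0.09 for the 2 effectors and 0.13 for the 3 pro-survival members. The median of the 7 pro-death members, BH3-only and effector together, was 0.18, against 0.03 for all tested genes. The order of the pro-death and pro-survival medians turned with the mean of each gene's probes (0.15 against 0.20) and with a normexp background correction (0.025 against 0.064), and the pro-survival median was 0.07 without KO 2. A score was formed for each array as the mean of the members' deviations from their 8-array means. For the pro-death members it was -0.18, 0.11, -0.14 and -0.23 on the HZ-labelled arrays and 0.01, 0.28, 0.01 and 0.13 on the KO-labelled arrays. HZ 2 was above 2 of the KO-labelled arrays, so that the groups overlapped, with -0.11 ± 0.15 (SD, n = 4) against 0.11 ± 0.13 (SD, n = 4). In arrays of the same replicate number the pro-death score was higher under the KO label in 4 of 4 pairs, by 0.19, 0.17, 0.16 and 0.36. The pro-survival score was -0.03 ± 0.10 (SD, n = 4) against 0.03 ± 0.11 (SD, n = 4) and overlapped more widely, and it too was higher in 4 of 4 pairs, by 0.0063 to 0.11. The arrays with replicate number 2 were high on both sides, and HZ 2 was the highest of its group for 8 members and KO 2 for 6.

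The balance, pro-death minus pro-survival score, was -0.06, 0.03, -0.15 and -0.13 on the HZ-labelled arrays and 0.09, 0.09, -0.0033 and 0.12 on the KO-labelled arrays. KO 3 lay below HZ 2, and the remaining KO-labelled arrays were above all of the HZ-labelled arrays. The means were -0.08 ± 0.08 (SD, n = 4) and 0.08 ± 0.05 (SD, n = 4), a difference of 0.15 toward pro-death transcripts on the KO-labelled arrays. Within pairs of the same replicate number the balance differed in this direction in 4 of 4, by 0.15, 0.06, 0.15 and 0.25. This difference came from few members. It was 0.06 without Hrk and 0.00049 without Hrk and Bbc3, with 3 of 4 pairs in this direction each time, both leave-outs chosen after the values were seen.

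**Figure D3:**
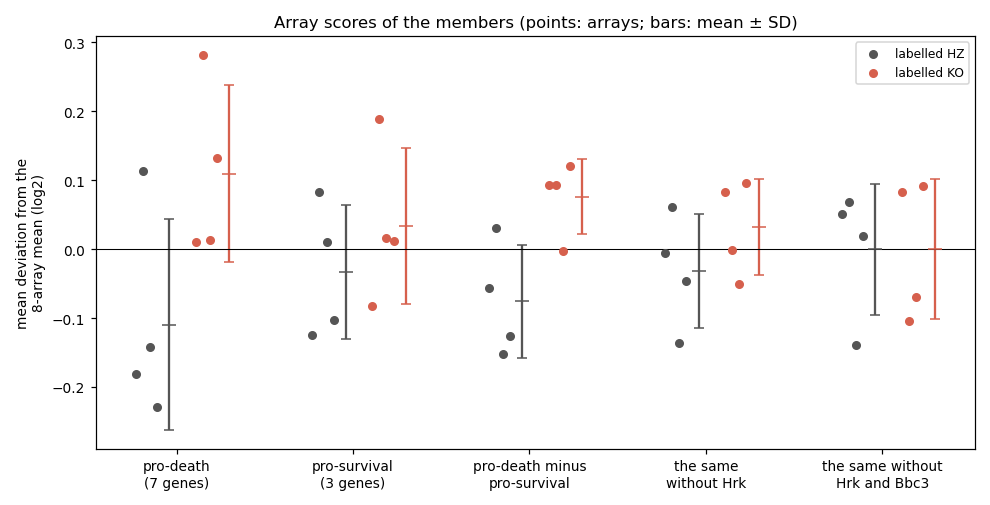
Score of each array for the 7 pro-death members, the 3 pro-survival members and the balance between them, in log2 units, with mean and SD of each group of 4 arrays beside the points. The balance differed by 0.15 between the labels with all members and by 0.00049 without Hrk and Bbc3.

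Other genes of the family and its pathway were examined from lists. Of 15 further family and related genes, 13 were matched on the array and 11 were tested, of which 6 were higher and 5 lower (median 0.08). At an unadjusted p under 0.05, 2 of the 11 were higher and 0 lower, beside the 5.81% and 3.5% of all tested genes. Bik, which encodes a BH3-only protein of the endoplasmic reticulum, was higher by 0.70 (standard error 0.22, limma adjusted p = 0.498) and so passed the looser thresholds. It gave -4.86, -4.30, -4.69 and -4.80 on the HZ-labelled arrays and -4.01, -3.36, -4.12 and -4.36 on the KO-labelled arrays. KO 4 lay just below HZ 2, and the remaining KO-labelled arrays were above all of the HZ-labelled arrays. Its level was low, though well above background on all 8 arrays.

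Bcl2a1d, one of a group of near-identical pro-survival genes known in myeloid cells, differed by 1.25 (standard error 0.50, unadjusted p = 0.0354, limma adjusted p = 0.586). It gave -4.88, -5.58, -5.32 and -3.33 on the HZ-labelled arrays and -2.72, -3.83, -3.84 and -3.72 on the KO-labelled arrays. HZ 4 was above 3 of the 4 KO-labelled arrays. The probe may also read its near-identical copies, and all 12 microglia markers were higher on the KO-labelled arrays, whose part in this value was not tested. Bok, an effector of the Bax type, differed by -0.44 (standard error 0.37), Bcl2l15 by -0.49 (standard error 0.22), Bcl2l10 by -0.28 and Bcl2l12 by -0.23, and all had overlapping groups. Bmf (0.13), Bcl2l2 (-0.05), Bcl2l13 (0.08), Bnip3 (0.09) and Bnip3l (0.08) differed little. Pmaip1 and Bcl2l14 were too dim to be tested.

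Among 55 pathway genes outside the family, 53 were tested, and 35 were higher and 18 lower (median 0.09), where 56.8% of all tested genes were higher. At an unadjusted p under 0.05, 7 of the 53 were higher and 1 was lower, where 5.81% and 3.5% of all tested genes were, and 0 passed either pair of thresholds. The 13 genes of the apoptosome and mitochondrial release included 8 higher and 5 lower (median 0.09). Xiap, an inhibitor of caspases, differed by 0.31 (standard error 0.08). It gave 3.98, 3.82, 3.96 and 3.96 on the HZ-labelled arrays and 4.19, 4.19, 4.25 and 4.33 on the KO-labelled arrays. Xiap was the 1 gene of this list without overlap (unadjusted p = 0.0044, limma adjusted p = 0.424), where 5.48% of all tested genes were higher without overlap.

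**Figure D4:**
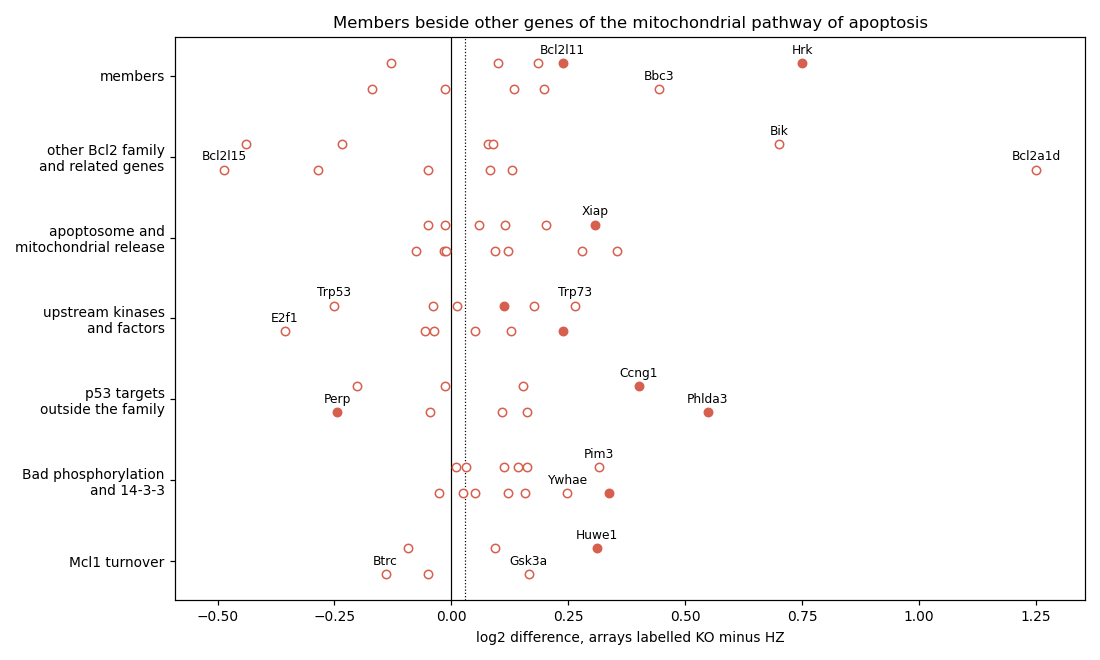
Log2 difference between KO-labelled and HZ-labelled arrays for the members and for the tested genes of 6 other groups, with filled points where the arrays of the labels did not overlap and a dotted line at the median of all tested genes. Genes with large differences in their group are named, among them Hrk (0.75), Bik (0.70), Bcl2a1d (1.25), Xiap (0.31) and Phlda3 (0.55).

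The kinases and factors upstream of BH3-only genes were split, with 7 of 12 higher and 5 lower (median 0.03), a split that was 10 and 2 with a normexp background correction. E2f1 (-0.36, standard error 0.36), Trp73 (0.26, standard error 0.13) and Trp53 (-0.25, standard error 0.15), transcription factors that can induce Bbc3, differed most, and their groups overlapped. The 2 genes of the list without overlap, named after their values were seen, were Foxo3, a FoxO factor, which was higher by 0.24 (standard error 0.09, unadjusted p = 0.0231, limma adjusted p = 0.545), and Mapk9, a Jun kinase, which differed by 0.11 (standard error 0.08, limma adjusted p = 0.716). Foxo3 was the 1 gene of the list at an unadjusted p under 0.05. Of all tested genes 5.81% were higher at this p, and 5.48% were higher without overlap. Of the p53 targets outside the family 5 of 9 tested were higher and 4 lower (median 0.11). Phlda3, an inhibitor of Akt, was higher by 0.55 (standard error 0.17, limma adjusted p = 0.48) and Ccng1, cyclin G1, by 0.40 (standard error 0.12, limma adjusted p = 0.483), both without overlap. Perp, a desmosomal protein, differed by -0.24 with a standard error of 0.09 (limma adjusted p = 0.555), also without overlap. Without overlap 2 of the 9 were thus higher and 1 lower, where 5.48% and 2.52% of all tested genes were. The p53 targets did not share 1 direction.

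Of the 13 genes of Bad phosphorylation and 14-3-3 binding 12 were higher and 1 lower (median 0.12), where 56.8% of all tested genes were higher (median 0.03). The count of higher genes in this list was 10 when the arrays were scaled on probes well above background on all of them. Under that scaling 7366 of the 14848 tested genes were higher (median -0.0020). At an unadjusted limma p under 0.05, 2 of the 13 were higher, where 5.81% of all tested genes were. Without overlap 1 of the 13 was higher, where 5.48% of all tested genes were. Pim3, a kinase that phosphorylates Bad, differed by 0.31 (standard error 0.11) and Ywhae, a 14-3-3 protein, by 0.25 (standard error 0.29). Among 6 genes of Mcl1 turnover 3 were higher and 3 lower (median 0.02). Huwe1, a ubiquitin ligase of Mcl1, differed by 0.31 (standard error 0.09, limma adjusted p = 0.465). It was the 1 gene of this list without overlap, where 5.48% of all tested genes were higher without overlap. Gsk3a, a kinase that marks Mcl1 for degradation, differed by 0.17 (standard error 0.08) and Btrc, a ubiquitin ligase subunit, by -0.14 (standard error 0.09).

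The members' differences were also computed in 18 alternative settings of the processing and the test. The difference of Bcl2l11 lay between 0.15 and 0.27 over these settings, and it had an unadjusted p under 0.05 in 16 of them. Hrk had such a p in 18 of 18 settings and Bbc3 in 6. The difference of Mcl1 lay between 0.14 and 0.24 and that of Bad between 0.03 and 0.15. The difference of Bcl2l1 was 0.07 without KO 2, 0.06 with quantile normalization and 0.03 with a normexp background correction, and it was 0.21 (limma unadjusted p = 0.0489, adjusted p = 0.686) with the mean of its probes. Those of Bax (-0.12 to 0.22), Bak1 (-0.08 to 0.06) and Bcl2 (-0.19 to 0.06) crossed 0. Bid stayed below 0, between -0.31 and -0.02.

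**Figure D5:**
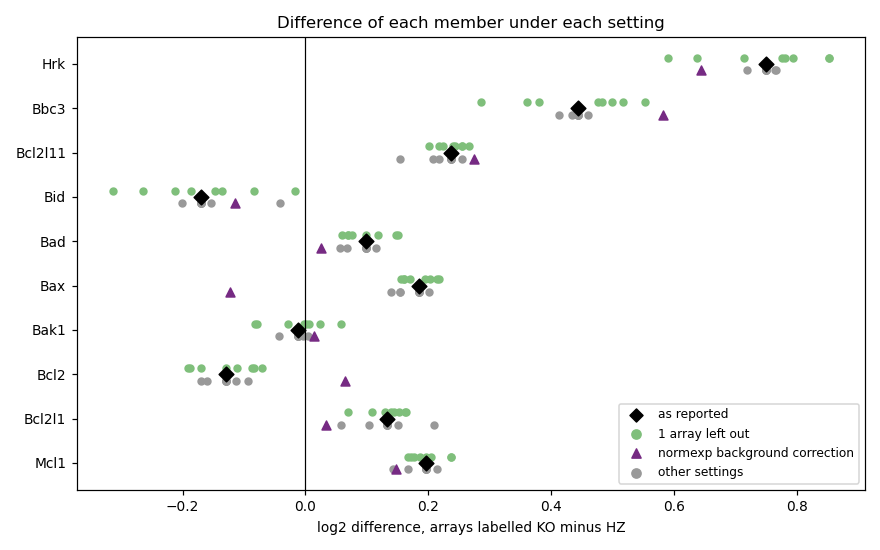
Log2 difference between KO-labelled and HZ-labelled arrays of each member as reported (black diamonds), with 1 array left out (green), with a normexp background correction (purple triangles) and in the other settings (gray). Hrk stays between 0.59 and 0.85 in all settings, while Bax, Bak1 and Bcl2 have values on both sides of 0.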

How the data were processed

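RNA was hybridized to 8 one-color SurePrint G3 Mouse arrays, and per the labels spots were quantified with Agilent Feature Extraction 10.7.1.1. The deposited scanner output holds background-subtracted intensity for every spot. A table of log2 values made in GeneSpring was deposited as well, shifted by the 75th percentile and centered on each probe's value across arrays, which were used as an alternative. Here the processed signal was taken as log2, the 75th percentile of the non-control spots of the same array was subtracted, spots marked as outliers were dropped, and repeated spots were averaged by probe. The 75th percentile was 882 to 1024 intensity units, 59.48% to 64.62% of probes were well above background, and HZ 4 had 458 non-uniform spots where the other arrays had 2 to 25. The number of arrays, 4 per label, limits the precision.

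Tested probes had to exceed background clearly on 4 or more of the 8 arrays, with 3 or more values per label. Probes were named through RefSeq accessions (GRCm38.p6), which matched 32994 of 56605 probes, and a gene was read by its tested probe with the highest mean. KO-labelled and HZ-labelled arrays were compared in limma (version 3.58.1, R 4.3.3, functions lmFit and eBayes, two-sided), with Benjamini-Hochberg adjustment over the tested probes, and the fit was tested on simulated data. The methods name an unpaired test and the 2 pairs of thresholds. The members and gene lists were chosen with earlier results of these data known. Named were all members with every probe, Lpcat1, the tested genes of the rest of the family, the 3 genes with the largest absolute difference in each pathway list, and the defining markers Rpe65 and Cx3cr1, apart from some items that are not reported here.

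Arrays with the same replicate number shared a slide column, and their deviations from the group means correlated at 0.17 to 0.34 in all 4 pairs, over the minimum of 0.1 set for pairing, against -0.34 to 0.12 for other numbers. No arrays held identical values, and arrays correlated at 0.974 to 0.992. Other settings tried were normexp background correction (offset 50, on the median spot signal, since the mean signal was not used here), quantile normalization, another basis for the percentile, a stricter and no filter on dim probes, the methods' unpaired test, a trended robust prior, a block for the replicate number, the GeneSpring values, the mean of a gene's probes, and leaving out each array. Motifs were searched in the 250 bases before RefSeq starts with Python 3.11.15, and plots were drawn with matplotlib 3.10.9.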

Additional observations from a re-analysis of the deposited data

How the results depend on the processing

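The p-values rest on 4 arrays per label, 1 slide, and labels that overlapped at the Lpcat1 probe, and the cause of each change below was not tested. Of 34303 probes, 0 passed a fold change of 1.2 and an adjusted p of 0.05, with 2 by the methods' t-test after Benjamini-Hochberg adjustment, 2 with quantile normalization, 3 with a trended robust prior and 17 with normexp background correction. At 1.5 and 0.5 the count was 357, against 41 without a filter on dim probes, 1167 with the replicate block, and 0 to 1617 with 1 array left out. It was 0 without HZ 1, HZ 3 or KO 3, 28 without KO 4, 60 without KO 2, 190 without KO 1 and 1617 without HZ 2. The replicate block, which pairs arrays of the same slide column, kept the size of each member's difference. It gave Hrk an unadjusted p of 0.00126 (limma adjusted p = 0.308) and 4 members an unadjusted p under 0.05, and changed no other call of a member than that of Mcl1. The number of such members was 5 with the trended robust prior and 1 to 4 with 1 array left out. Hrk differed by 0.75 without a filter on dim probes (limma adjusted p = 0.836) and by 0.59 to 0.85 with 1 array left out, where its adjusted p lay between 0.27 and 0.799. With normexp background correction the median of the pro-death members was 0.025, Bax was -0.12, Bcl2 was 0.064 and Bak1 was 0.014. Bak1 was also above 0 with the authors' processed values (0.0041) and with 1 array left out, where it lay between -0.082 and 0.058 (0.0018 without HZ 1, 0.058 without HZ 2, 0.023 without KO 1 and 0.0066 without KO 3). The balance was 0.063 without Hrk and 0.00049 without Hrk and Bbc3, and it lay between 0.10 and 0.19 under the other 18 alternatives. The median of all tested genes moved by less than 0.1 under each scaling, between -0.0020 and 0.04.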
